A study of Mus musculus with 6 samples.

Results

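The translation initiation factors (eIF genes) and elongation factors (eEF genes) were taken from the expression table by symbol, as every row whose name starts with Eif or Eef followed by a digit. This gave 69 rows, of which the Y-linked Eif2s3y was left out and 0 were pseudogenes, so that 68 of the 25572 genes in the table were members. RNA sequencing had been done on hind limb skeletal muscle collected 3 days after an operation that cuts the blood supply of the leg (hind limb ischaemia). The groups were 3 HDCKO mice, which carry the Hdc-/- genotype and so lack histidine decarboxylase, the enzyme that makes histamine, and 3 WT mice, with 1 library per mouse. Both groups had been operated on, and no unoperated muscle was analysed here; the labels state neither age nor strain. Levels are in FPKM, fragments scaled by transcript length and library size, which allows genes of different length to be compared.

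Initiation factors bring the initiator tRNA and the small ribosomal subunit to the start codon: eIF2 carries the tRNA, eIF3 scaffolds the complex, and the eIF4 proteins bind the cap and unwind the leader. Elongation factors then drive each codon step, eEF1A delivering aminoacyl-tRNA and eEF2 moving the ribosome along. Mammals have a pair of eEF1A genes, and mature skeletal muscle is known for using Eef1a2 in place of the widely expressed Eef1a1.

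The libraries of the 2 groups differed in cell type markers as well as genotype, and the part of this difference in the members' values was not tested. Hdc itself was at 1.22, 2.46 and 2.52 FPKM in HDCKO muscles and 7.49, 7.72 and 8.17 FPKM in WT muscles, a log2 change of -1.74 (SE 0.25, adjusted p = 0.0033). It was thus lower in HDCKO muscle but not at 0, and the labels do not say which exons the allele lacks. The 12 mature muscle fibre markers, led by contractile genes such as Acta1 and Ckm, summed to 89643, 75740 and 48974 FPKM in HDCKO muscles and to 1627, 529 and 421 FPKM in WT muscles, and all 12 passed as higher. The WT libraries labelled as skeletal muscle therefore held little fibre RNA, and every WT value is that of such a library. Both groups are labelled as hind limb skeletal muscle. Whether the same part of it was sampled in both is not stated, and a difference in sampling and the genotype cannot be told apart. The 7 neutrophil markers all passed as lower, with sums of 32.1, 69.4 and 59.5 FPKM in HDCKO muscles and 3826, 13997 and 2366 FPKM in WT muscles. Macrophage markers, of which 2 of 7 passed as lower, summed to 281, 826 and 2004 FPKM in HDCKO muscles and 2349, 1878 and 2516 FPKM in WT muscles. Fibroblast markers passed as lower in 2 of 6 cases, endothelial markers in 3 of 5 and cell cycle genes in 4 of 5. Of 6 muscle regeneration markers, 2 passed as higher. Their sums were 33.7, 37.4 and 134.6 FPKM in HDCKO muscles and 28.0, 6.53 and 22.3 FPKM in WT muscles. Over all genes tested 17.8% passed as higher and 42.6% as lower. Under median-of-ratios scaling, described below, 0 of 7 macrophage, 2 of 6 fibroblast, 2 of 5 endothelial and 2 of 5 cell cycle markers passed as lower. The counts of fibre, neutrophil and regeneration markers were unchanged under it, and 26.3% of all genes passed in each direction. None of the 7 marker lists held a gene that passed the other way, and no defining marker of the fibre, neutrophil or macrophage lists was at 0 in any library. Myh2 (0.21 FPKM) and Myh8 (0.30 FPKM) averaged under 0.5 FPKM in WT muscles, and Ly6g (0.11 FPKM) and Ngp (0.29 FPKM) in HDCKO muscles. These 4 reached the mean of 0.5 FPKM needed for testing through the other group alone. A difference was thus built into their being tested, and their calls are descriptions only. In bulk tissue, fewer cells of a type and less RNA per cell cannot be told apart.

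Of the 68 members, 66 averaged 0.5 FPKM or more across the libraries and were tested. The germ cell cap-binding protein Eif4e1b, at no more than 0.0471 FPKM, and Eif1ad8, above 0 only in WT replicate 3 at 0.0144 FPKM, were under that minimum. A member is said to have passed where limma's adjusted p over all 13288 genes tested was under 0.05. In HDCKO muscle 6 members were higher (9.09%) and 29 lower (43.9%), while 31 did not pass. Over all genes tested 17.8% were higher and 42.6% lower, so the share of members that was lower lay near the background and the share that was higher below it. The median log2 change was -0.41 over the members and -0.50 over all genes, a difference of 0.09. Values of the groups did not overlap in 12 members that were higher (18.2%) and 39 that were lower (59.1%), against 21.2% and 51.4% of all genes, and overlapped in 15. The change was past 1 on the log2 scale in 14 members called lower (21.2%, against 26.0% of all genes) and 2 called higher (3.03%, against 11.6%).

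**Figure D1:**
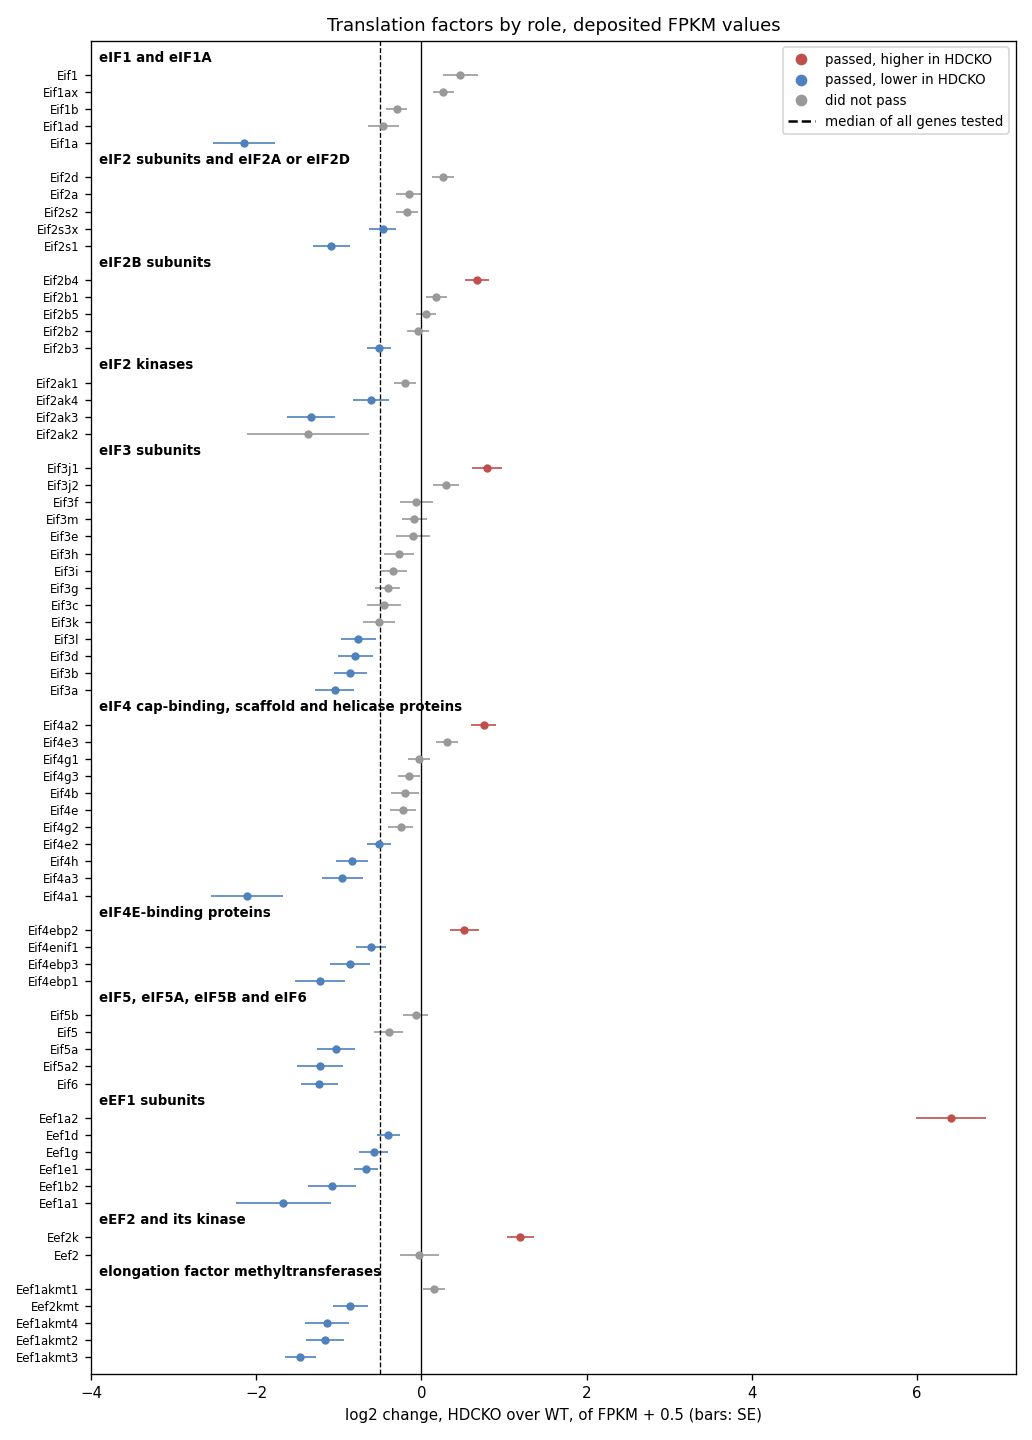
Log2 change of FPKM + 0.5, HDCKO over WT, of the 66 tested translation factors by role, with bars for the SE over 3 HDCKO and 3 WT libraries. Eef1a2 stood at 6.41, far right of the others, and the dashed line is the median of all genes at -0.50.

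How many members passed depended on how libraries were scaled. Genes of the muscle fibre and the respiratory chain took 52.3%, 43.8% and 31.5% of the summed FPKM in HDCKO libraries, against 6.65%, 5.63% and 6.01% in WT libraries, and FPKM values are relative to a total that includes these genes. With median-of-ratios scaling, which sets the median gene level between libraries, 19 members were higher and 15 lower, with 26.3% of all genes in each direction. Quantile normalization gave 14 higher and 19 lower (23.6% and 30.3% of all genes), and TPM 5 higher and 33 lower (16.0% and 45.1% of all genes). With the 154 fibre and respiratory genes left out of the sum, 26 members were higher and 8 lower, against 30.8% and 19.3% of all genes. The median of all genes was -0.04 under median-of-ratios scaling and 0.04 with fibre genes left out, on the log2 scale. No member that passed in one direction passed in the other under the scalings compared, which were the deposited values, median-of-ratios, quantile, TPM and the sum without fibre genes. Under all 5, 8 members passed as lower and 5 as higher. The lower ones were Eef1akmt2, Eef1akmt3, Eif1a, Eif2ak3, Eif2s1, Eif4a1, Eif5a2 and Eif6, and each also passed in all 6 refits that left out 1 library. Eef1akmt3 was tested through its WT level alone, so its call is given as a description and supports nothing. The higher ones were Eef1a2, Eef2k, Eif2b4, Eif3j1 and Eif4a2, of which Eif2b4 (adjusted p = 0.0504) and Eif3j1 (0.0574) did not pass without HDCKO replicate 2. The other 22 calls were lost under at least 1 scaling. Under median-of-ratios 13 members that did not pass by the deposited values passed as higher, namely Eif1, Eif1ax, Eif2d, Eif2b1, Eif2b2, Eif2b5, Eif3e, Eif3f, Eif3m, Eif3j2, Eif4e3, Eif5b and Eef1akmt1, and 0 newly passed as lower. Of all 35 calls, 24 were lost in at least 1 of the 6 refits, and the count of members called lower was 9 without HDCKO replicate 2 and 12, 15 and 12 without WT replicates 1, 2 and 3. Shares of all genes called were not counted for these refits.

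**Figure D2:**
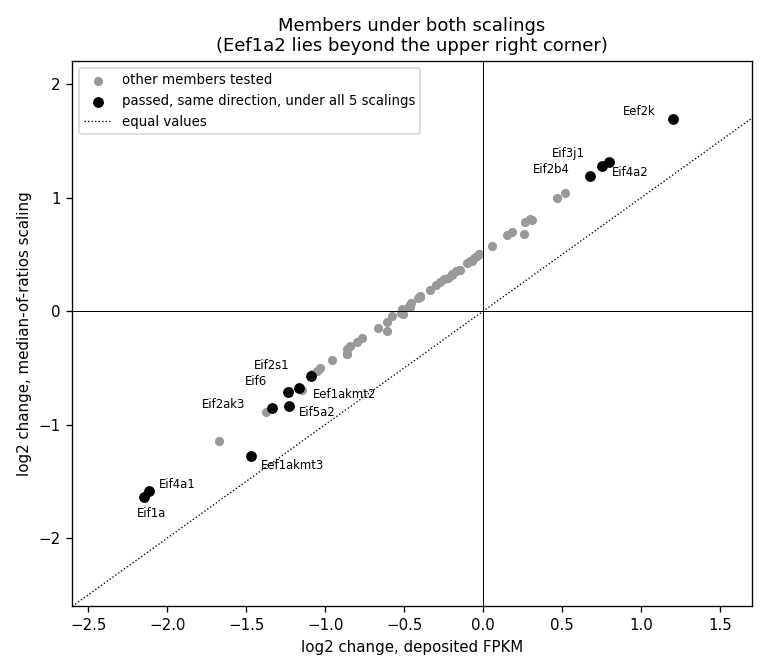
Log2 change of each tested member, HDCKO over WT, under the deposited FPKM values (x axis) and under median-of-ratios scaling (y axis), with the members that passed under all 5 scalings in black and Eef1a2 beyond the upper right corner. The points lie above the dotted line of equal values, and the member median was 0.12 on the y axis and -0.41 on the x axis.

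The clearest change among the members was in eEF1A, the tRNA carrier of elongation. Eef1a2, the muscle and neuron form, had 181, 141 and 90.2 FPKM in HDCKO muscles and 2.22, 0.831 and 0.547 FPKM in WT muscles. The lowest HDCKO value was far above the highest WT value. The log2 change was 6.41 (SE 0.42, adjusted p = 0.000276), or 6.91 above the median of all genes. Eef1a1, the form of most other cells, had 537, 1328 and 2578 FPKM in HDCKO muscles and 4121, 3628 and 3992 FPKM in WT muscles. It was lower in every HDCKO muscle, with a log2 change of -1.67 (SE 0.58, adjusted p = 0.0448) that was -1.18 relative to the median of all genes. The call of Eef1a1 held in 1 of 6 refits, the one without HDCKO replicate 3. Leaving out HDCKO replicates 1 and 2 in turn gave adjusted p of 0.055 and 0.107, and it was 0.111, 0.104 and 0.114 without WT replicates 1, 2 and 3. It was also lost under median-of-ratios scaling, with a log2 change of -1.14 (adjusted p = 0.0631), and with fibre genes out of the sum, at -1.05 (0.111).

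Within a library the ratio of the pair is free of any scaling by a single factor, apart from the pseudocount. Eef1a2 was 33.8%, 10.6% and 3.50% of Eef1a1 in HDCKO muscles and 0.0538%, 0.0229% and 0.0137% of Eef1a1 in WT muscles. The log2 ratio of FPKM + 0.5 averaged -3.21 ± 1.63 in HDCKO muscles and -11.29 ± 0.67 in WT muscles (SD, n = 3 each), a difference of 8.08 (exact two-sided permutation p = 0.1, the smallest that 3 against 3 allows). Without the pseudocount the difference was 8.71. Even in HDCKO muscle Eef1a1 stayed the more abundant transcript in every library, and Eef1a2 made up 25.2%, 9.60% and 3.38% of the eEF1A sum. That sum was 718, 1469 and 2668 FPKM in HDCKO muscles and 4123, 3628 and 3993 FPKM in WT muscles, so the gain in Eef1a2 was smaller than the shortfall in Eef1a1 on the FPKM scale. Among HDCKO muscles, the one with the most Eef1a2 had the highest fibre marker sum and the lowest macrophage marker sum, and the one with the most Eef1a1 had the lowest fibre and the highest macrophage marker sum. The part of tissue content in these values was not tested.

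**Figure D3:**
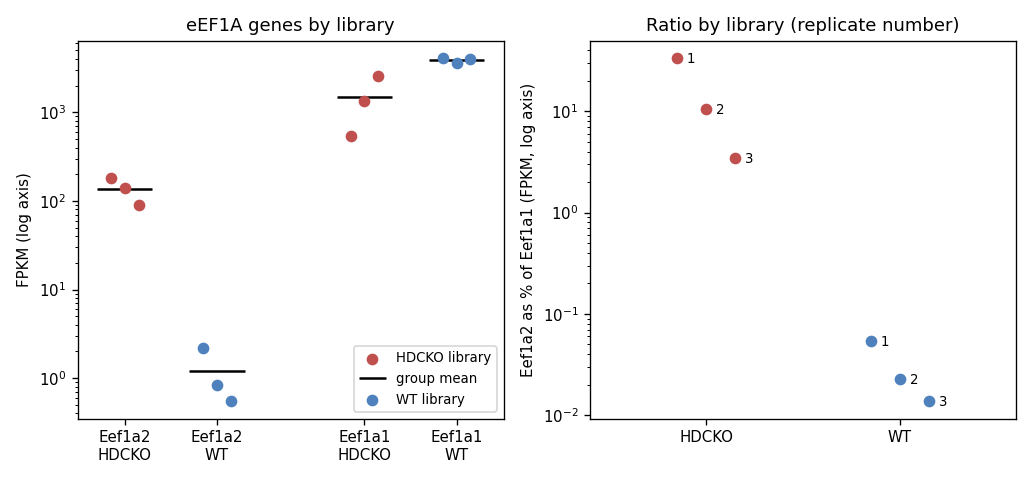
FPKM of Eef1a2 and Eef1a1 in each library with the group mean (left, log axis), and Eef1a2 as a percent of Eef1a1 with replicate numbers (right, log axis). The ratio was 3.50% to 33.8% in HDCKO muscles and 0.0137% to 0.0538% in WT muscles.

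The 250 bases before the annotated start of each eEF1A gene are shown because the pair moved in opposite directions. They are from RefSeq on GRCm38.p6, 5′ to 3′ on the strand of the gene. Eef1a2 lies on the minus strand (chr2:181157016-181157265) and Eef1a1 on the minus strand (chr9:78481725-78481974).
Eef1a2: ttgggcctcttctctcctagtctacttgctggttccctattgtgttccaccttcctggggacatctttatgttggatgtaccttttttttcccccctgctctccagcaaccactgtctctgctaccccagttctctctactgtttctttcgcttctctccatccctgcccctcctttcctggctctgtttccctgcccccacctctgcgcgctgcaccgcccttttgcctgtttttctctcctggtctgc
Eef1a1: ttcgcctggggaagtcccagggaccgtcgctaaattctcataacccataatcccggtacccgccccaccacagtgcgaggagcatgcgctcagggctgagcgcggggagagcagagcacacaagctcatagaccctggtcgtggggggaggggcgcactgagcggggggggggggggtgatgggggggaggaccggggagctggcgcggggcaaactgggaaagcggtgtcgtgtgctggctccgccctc
Their GC content was 54% for Eef1a2 and 68% for Eef1a1. Neither window held CACGTG (the E-box bound by MYC, USF and related factors), CAGCTG (an E-box form used by myogenic factors) or TATAAA (the TATA box), searched on both strands and chosen after the expression values were seen.

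The other eEF1 genes all passed as lower, where 42.6% of all genes did. Eef1b2, Eef1d and Eef1g form the complex that reloads eEF1A with GTP. Eef1b2, the exchange factor itself, had 72.7, 113 and 154 FPKM in HDCKO muscles and 259, 211 and 223 FPKM in WT muscles. Its log2 change was -1.08 (SE 0.29, adjusted p = 0.0219), and the groups did not overlap. Eef1e1, which is part of the multi-synthetase complex, fell by 0.67 on the log2 scale (adjusted p = 0.0113), the scaffold Eef1g by 0.58 (0.0319) and the second exchange subunit Eef1d by 0.40 (0.0486). These calls rested on scaling: under median-of-ratios the log2 changes of Eef1e1, Eef1g and Eef1d were -0.15, -0.05 and 0.12, and none passed. They rested on single libraries too. Eef1g and Eef1d passed only without HDCKO replicate 3, Eef1b2 did not pass without HDCKO replicate 2 (adjusted p = 0.0677) or WT replicates 1, 2 or 3 (0.0723, 0.0554 and 0.0638), and Eef1e1 did not pass without HDCKO replicate 2 (0.0545).

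eEF2, the translocase, had 520, 707 and 798 FPKM in HDCKO muscles and 738, 609 and 687 FPKM in WT muscles. These values overlapped, with a log2 change of -0.02 (SE 0.24, adjusted p = 0.933), although with fibre genes out of the sum it was 0.60 (adjusted p = 0.0371). Eef2k, the calcium- and calmodulin-dependent kinase that phosphorylates and inhibits eEF2, had 13.3, 11.7 and 11.4 FPKM in HDCKO muscles and 4.93, 4.25 and 5.86 FPKM in WT muscles. It rose by a log2 change of 1.20 (SE 0.16, adjusted p = 0.00278) and passed under every scaling and in every refit. Its HDCKO values lay closer together than those of Eef1a2.

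Of the 5 methyltransferases that modify elongation factors, 4 passed as lower, where 42.6% of all genes did. Eef1akmt3, which methylates a lysine of eEF1A, had 0.0649, 0 and 0.119 FPKM in HDCKO muscles and 1.19, 0.783 and 1.21 FPKM in WT muscles, a log2 change of -1.47 (SE 0.19, adjusted p = 0.00239). It reached the minimum level through WT muscle alone, so a difference was built into its being tested. Eef1akmt2 had 2.82, 3.89 and 5.38 FPKM in HDCKO muscles and 9.50, 8.48 and 10.3 FPKM in WT muscles, a log2 change of -1.17 (SE 0.23, adjusted p = 0.00918). Eef1akmt4 (-1.14, adjusted p = 0.0149) and the eEF2 enzyme Eef2kmt (-0.86, 0.0163) were also lower. Without HDCKO replicate 2 or WT replicates 1 or 3 these last calls were lost, with adjusted p of 0.0559, 0.0536 and 0.0507 for Eef1akmt4 and 0.0626, 0.0584 and 0.0589 for Eef2kmt. Eef1akmt1, the most abundant of the group, had 19.6, 21.5 and 19.7 FPKM in HDCKO muscles and 17.5, 17.4 and 19.7 FPKM in WT muscles. Those values overlapped (log2 change 0.15, adjusted p = 0.329).

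Among the factors that select the start codon, Eif1a, a copy of the gene for the scanning factor eIF1A, stood out. It had 6.63, 9.86 and 19.6 FPKM in HDCKO muscles and 51.6, 52.0 and 46.9 FPKM in WT muscles. The log2 change of -2.15 (SE 0.37, adjusted p = 0.00597), or -1.65 when set against the median gene, was the lowest of any member. The X-linked copy Eif1ax did not follow it: the log2 change was 0.26 (adjusted p = 0.115), with non-overlapping values that were higher in HDCKO muscle. No source used here says how reads shared between such near-identical copies were counted. Eif1, which enforces the start codon and was the most abundant of these, had 499, 562 and 390 FPKM in HDCKO muscles and 326, 382 and 330 FPKM in WT muscles. That log2 change of 0.47 did not pass (adjusted p = 0.0945) but did with median-of-ratios scaling, at 1.00 (0.0319). Eif1b (-0.30, adjusted p = 0.0821) and Eif1ad (-0.46, 0.0706) did not pass.

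eIF2 delivers the initiator tRNA, and its subunits did not move alike. Eif2s1, the alpha subunit whose phosphorylation slows initiation, had 15.7, 20.4 and 27.8 FPKM in HDCKO muscles and 43.7, 45.3 and 45.3 FPKM in WT muscles, a log2 change of -1.09 (SE 0.22, adjusted p = 0.00933). Eif2s2, the beta subunit, had 61.2, 58.8 and 66.4 FPKM in HDCKO muscles and 72.5, 70.7 and 66.4 FPKM in WT muscles, a log2 change of -0.17 that did not pass (adjusted p = 0.295). Whether the subunits differed in their change was not tested. The gamma subunit Eif2s3x was lower by the deposited values (-0.47, adjusted p = 0.0467), but this call held in 1 of 6 refits, the one without HDCKO replicate 3, and the log2 change was 0.05 under median-of-ratios scaling. Eif2a (-0.15, adjusted p = 0.435) and Eif2d (0.26, 0.132), which can deliver tRNA on their own, did not pass.

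eIF2B recycles eIF2 by exchanging its GDP for GTP. Its delta subunit Eif2b4 had 19.0, 18 and 16.5 FPKM in HDCKO muscles and 12.3, 11 and 9.70 FPKM in WT muscles. The groups did not overlap, with a log2 change of 0.68 (SE 0.15, adjusted p = 0.0113). The gamma subunit Eif2b3, at 3.46, 4.11 and 4.38 FPKM in HDCKO muscles and 6.25, 5.54 and 5.80 FPKM in WT muscles, was lower by the deposited values (-0.51, adjusted p = 0.026). With median-of-ratios scaling its log2 change was -0.03, and it passed in 1 of 6 refits, the one without HDCKO replicate 3. Eif2b2, the most abundant subunit, had 26.7, 24.4 and 29.9 FPKM in HDCKO muscles and 28.9, 27.2 and 27.0 FPKM in WT muscles. Eif2b2 (-0.04), Eif2b1 (0.18) and the catalytic Eif2b5 (0.05) did not pass by the deposited values. All of them passed as higher under median-of-ratios, at 0.48 (adjusted p = 0.04998), 0.70 (0.0365) and 0.58 (0.0306), so that 4 of 5 subunits were higher and 0 lower under that scaling. Of all genes, 26.3% passed in each direction under it.

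The 4 kinases that phosphorylate eIF2 alpha sense different stresses. Eif2ak3 (PERK, the sensor of the endoplasmic reticulum) had 2.30, 3.84 and 5.41 FPKM in HDCKO muscles and 8.90, 11 and 10.2 FPKM in WT muscles. It fell by 1.34 on the log2 scale (SE 0.29, adjusted p = 0.0111) and passed under every scaling. Eif2ak2 (PKR, the interferon-induced sensor of double-stranded RNA) had 2.12, 5.71 and 22.5 FPKM in HDCKO muscles and 18.3, 18.3 and 17.9 FPKM in WT muscles. HDCKO replicate 3 was above all WT muscles and the other HDCKO muscles far below them, so the log2 change of -1.38 (SE 0.74) did not pass (adjusted p = 0.146). Without HDCKO replicate 3 it passed as lower, with a log2 change of -2.21 (adjusted p = 0.00357). Eif2ak4 (GCN2, the sensor of amino acid shortage) was lower at -0.61 (adjusted p = 0.0472) but passed in 1 of 6 refits, the one without HDCKO replicate 3. Eif2ak1 (HRI, the haem-regulated kinase) had 15.1, 15.2 and 17.4 FPKM in HDCKO muscles and 16.9, 18.6 and 19.2 FPKM in WT muscles and did not pass (-0.20, adjusted p = 0.236).

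eIF3 is the largest initiation complex, and 4 of its 14 members passed as lower (28.6%) and 1 as higher (7.14%). Over all genes these shares were 42.6% and 17.8%. Eif3a, the core scaffold, had 30.4, 36.7 and 54.6 FPKM in HDCKO muscles and 86.2, 80.3 and 79.6 FPKM in WT muscles, a log2 change of -1.05 (SE 0.23, adjusted p = 0.0123). The RNA- and cap-contacting subunits Eif3b (-0.86, adjusted p = 0.0129) and Eif3d (-0.80, 0.0213) and Eif3l (-0.77, 0.0234) were also lower. Eif3j1, a loosely bound subunit, had 31.8, 30.9 and 25.3 FPKM in HDCKO muscles and 13.6, 19.2 and 17.5 FPKM in WT muscles. It rose by 0.79 (SE 0.18, adjusted p = 0.0134), and its near-identical copy Eif3j2 had a log2 change of 0.30 that did not pass (0.146), so the split of reads between the pair is uncertain. Eif3h, the most abundant subunit, had 104, 134 and 148 FPKM in HDCKO muscles and 161, 146 and 155 FPKM in WT muscles and did not pass (-0.27, adjusted p = 0.232). The other 7 had log2 changes of -0.51 to -0.06 and did not pass. Scaling decided most of this picture. Under median-of-ratios Eif3a was the only subunit that passed as lower (-0.52, adjusted p = 0.0194), while Eif3e (0.42), Eif3f (0.47), Eif3m (0.44), Eif3j1 (1.31) and Eif3j2 (0.81) passed as higher. That was 7.14% lower and 35.7% higher, against 26.3% of all genes in each direction. Without HDCKO replicate 2, adjusted p was 0.0533 for Eif3a, 0.0563 for Eif3b, 0.0787 for Eif3d and 0.0797 for Eif3l. Without WT replicates 1, 2 or 3 it was 0.0593 to 0.0692 for Eif3d and 0.0614 to 0.0735 for Eif3l.

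The eIF4A helicases unwind the leader of the mRNA, and the closely related Eif4a1 and Eif4a2 moved in opposite directions. Eif4a1 had 59.3, 81.5 and 196 FPKM in HDCKO muscles and 424, 428 and 433 FPKM in WT muscles. It fell by 2.12 on the log2 scale (SE 0.44, adjusted p = 0.00991), a change of -1.62 relative to the median of all genes. Eif4a2 had 80.8, 89.8 and 68.2 FPKM in HDCKO muscles and 49.4, 44.4 and 46.5 FPKM in WT muscles, a log2 change of 0.75 (SE 0.16, adjusted p = 0.0102), or 1.25 relative to that median. Both calls held under all 5 scalings and in all 6 refits. The ratio of Eif4a2 to Eif4a1 was 1.36, 1.10 and 0.347 in HDCKO muscles and 0.117, 0.104 and 0.107 in WT muscles. Eif4a2 was thus the more abundant form in HDCKO replicates 1 and 2 and the less abundant one in the other 4 libraries. The log2 ratio averaged -0.31 ± 1.06 in HDCKO muscles and -3.18 ± 0.09 in WT muscles (SD, n = 3 each), a difference of 2.87 (exact two-sided permutation p = 0.1, the smallest possible).

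The promoter windows of this pair are shown for the same reason as those of eEF1A, 250 bases before the start on GRCm38.p6 from RefSeq, with CACGTG in capitals where present. Eif4a2 lies on the plus strand (chr16:23107218-23107467) and Eif4a1 on the minus strand (chr11:69672424-69672673).
Eif4a2: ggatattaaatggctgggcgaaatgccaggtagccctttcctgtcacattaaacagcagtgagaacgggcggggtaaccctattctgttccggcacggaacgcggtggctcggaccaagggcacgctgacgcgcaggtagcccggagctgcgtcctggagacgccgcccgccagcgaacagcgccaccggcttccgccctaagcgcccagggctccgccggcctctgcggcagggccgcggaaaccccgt
Eif4a1: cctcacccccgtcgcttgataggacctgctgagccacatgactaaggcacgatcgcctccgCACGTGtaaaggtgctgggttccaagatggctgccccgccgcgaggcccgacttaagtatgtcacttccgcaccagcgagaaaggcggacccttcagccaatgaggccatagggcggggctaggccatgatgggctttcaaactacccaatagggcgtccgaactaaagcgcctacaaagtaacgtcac
The window of Eif4a1 held CACGTG, whose first base was 189 bases before the start, and that of Eif4a2 did not. GC content was 66.4% for Eif4a2 and 58.8% for Eif4a1. Of the 68 members, 51 had a promoter in the RefSeq table, and 12 of these (23.5%) held CACGTG, against 6.86% of 27025 genes. The 27025 genes were neither limited to expressed ones nor matched for GC content, so the shares are not of like sets. Among those 12, 1 member passed as higher (Eef2k), 5 as lower and 6 did not pass, so the motif stood in promoters of members of every kind. CAGCTG stood in 4 members (7.84%, against 14.7% of all genes) and TATAAA in 4 (7.84%, against 14.3%). Such matches describe letters in a window and say nothing of binding.

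Of the other eIF4 genes, the exon junction helicase Eif4a3 (-0.96, adjusted p = 0.0184), the eIF4A cofactor Eif4h (-0.84, 0.0146) and the cap-binding homologue Eif4e2 (-0.52, 0.0238) were lower. Without HDCKO replicate 2 none of these passed (adjusted p of 0.0683, 0.063 and 0.0922), nor without WT replicate 1 (0.0571, 0.052 and 0.0759) or WT replicate 3 (0.058, 0.052 and 0.0811). Eif4a3 and Eif4e2 were also lost without WT replicate 2 (0.058 and 0.070), and Eif4e2 without HDCKO replicate 1 (0.0555). The scaffold Eif4g1 had 107, 96.0 and 99.0 FPKM in HDCKO muscles and 104, 97.8 and 106 FPKM in WT muscles, and the related Eif4g3 had 16.2, 14.6 and 17.3 FPKM in HDCKO muscles and 18.3, 16.6 and 18.5 FPKM in WT muscles. Neither passed, with log2 changes of -0.03 (adjusted p = 0.865) and -0.15 (0.353). The cap-binding protein Eif4e had 13.0, 14.1 and 10.1 FPKM in HDCKO muscles and 14.5, 14.3 and 14.6 FPKM in WT muscles (-0.22, adjusted p = 0.255). Its relative Eif4e3 had 6.58, 7.15 and 7.17 FPKM in HDCKO muscles and 5.56, 5.19 and 5.82 FPKM in WT muscles, which did not overlap but did not pass (0.31, adjusted p = 0.0757). Eif4b (-0.20, adjusted p = 0.346) and Eif4g2 (-0.25, 0.184) did not pass.

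The eIF4E-binding proteins block cap-dependent initiation until mTORC1 phosphorylates them. Eif4ebp1 had 33.2, 69.3 and 66.4 FPKM in HDCKO muscles and 125, 136 and 119 FPKM in WT muscles, a log2 change of -1.23 (SE 0.30, adjusted p = 0.0167). Eif4ebp2 had 41.7, 38.5 and 39.4 FPKM in HDCKO muscles and 22.2, 31.9 and 29.8 FPKM in WT muscles, a log2 change of 0.52 (SE 0.17, adjusted p = 0.0411). Neither pair of groups overlapped. The ratio of Eif4ebp1 to Eif4ebp2 was 0.795, 1.80 and 1.68 in HDCKO muscles and 5.63, 4.25 and 3.98 in WT muscles. On the log2 scale it averaged 0.42 ± 0.65 in HDCKO muscles and 2.17 ± 0.26 in WT muscles (SD, n = 3 each), a difference of -1.75 (exact two-sided permutation p = 0.1). The call of Eif4ebp1 was lost without WT replicates 1, 2 or 3 (adjusted p = 0.0525, 0.0562 and 0.0507). That of Eif4ebp2 held only without HDCKO replicate 3, with adjusted p of 0.0533 to 0.122 without each of the other 5 libraries. Eif4ebp2 also missed the threshold on the TPM scale (log2 change 0.42, adjusted p = 0.0831). Eif4ebp3 (-0.86, adjusted p = 0.0235) and Eif4enif1, which carries eIF4E into the nucleus (-0.61, 0.0299), were lower. Without HDCKO replicate 2 or WT replicates 1, 2 or 3 their adjusted p was 0.0599 to 0.102, and that of Eif4enif1 was 0.0693 without HDCKO replicate 1.

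In the last steps of initiation eIF5 triggers GTP hydrolysis, eIF5B joins the subunits and eIF6 keeps free large subunits apart, while the hypusinated eIF5A helps the ribosome past difficult codons. Eif6 had 21.4, 26.8 and 37.9 FPKM in HDCKO muscles and 66.6, 66.6 and 66.1 FPKM in WT muscles. It fell by 1.24 on the log2 scale (SE 0.22, adjusted p = 0.00674) and passed under every scaling and in every refit. Eif5a had 144, 149 and 230 FPKM in HDCKO muscles and 331, 361 and 356 FPKM in WT muscles, a log2 change of -1.03 (SE 0.23, adjusted p = 0.0123) that did not pass without HDCKO replicate 2 (0.0578). Its less abundant copy Eif5a2, at 0.590 to 1.53 FPKM in HDCKO muscles and 2.62 to 3.91 FPKM in WT muscles, was lower as well (-1.23, adjusted p = 0.0127). Eif5 (-0.40, adjusted p = 0.0927) and Eif5b (-0.07, 0.698) did not pass.

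**Figure D4:**
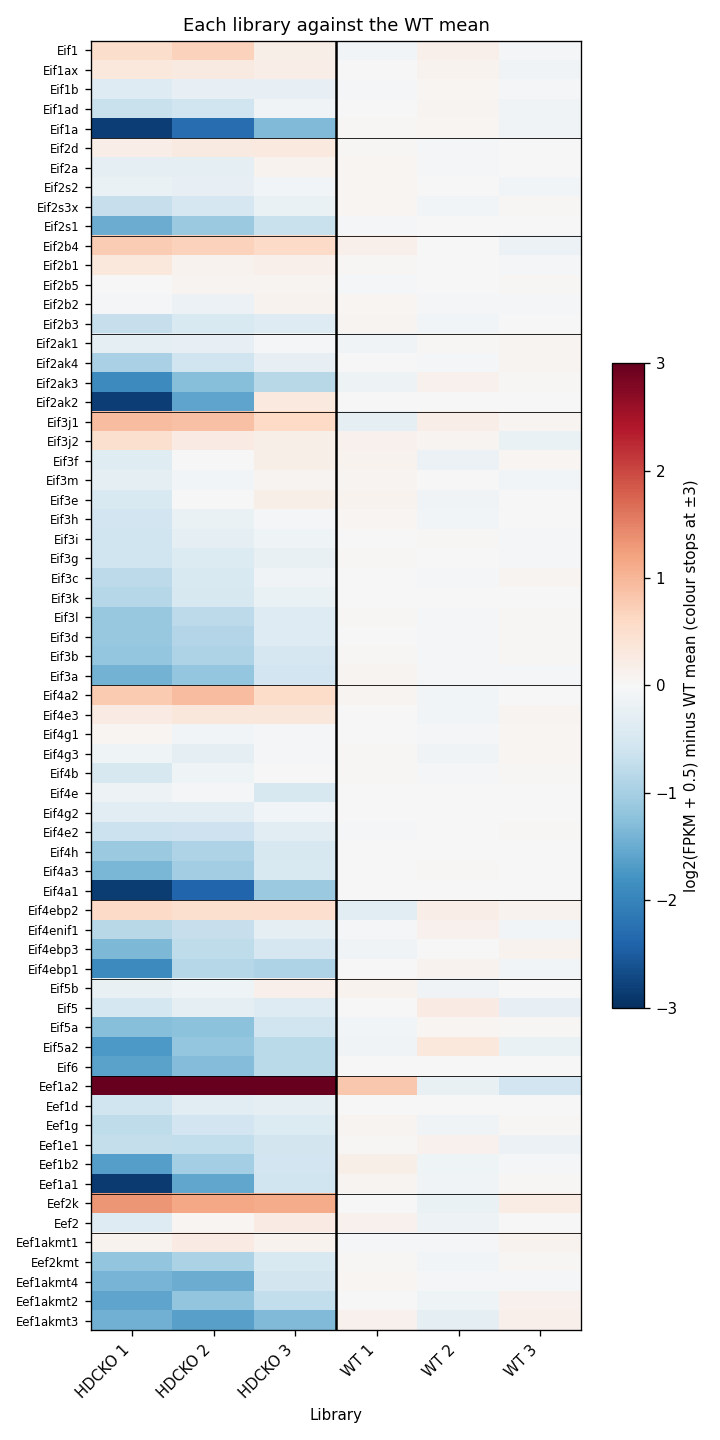
Each of the 66 tested members in each library, as log2(FPKM + 0.5) minus the WT mean, with members in rows by role and HDCKO libraries left of WT libraries; colour stops at ±3. HDCKO replicate 3 was the palest HDCKO column, lying nearest the WT mean in 51 of 66 members.

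The HDCKO muscles were less alike than the WT muscles: correlations of log2 values across genes, which are not independent, ran from 0.887 to 0.963 among HDCKO libraries and from 0.975 to 0.986 among WT libraries. HDCKO replicate 3 lay nearest the WT mean in 51 of 66 members (77.3%), close to the 75.0% of all genes for which the same held. Members together took 0.889%, 1.20% and 1.68% of the summed FPKM in HDCKO libraries and 2.24%, 2.06% and 2.24% in WT libraries. Eef1a1 was 13.3%, 24.5% and 36.3% of the members' own sum in HDCKO libraries and 44.2%, 42.0% and 44.0% in WT libraries, and without Eef1a1 the members summed to 3506, 4093 and 4525 FPKM in HDCKO libraries and 5193, 5008 and 5079 FPKM in WT libraries. The fibre marker sum was also nearest WT in HDCKO replicate 3, as were the macrophage, fibroblast, endothelial and cell cycle sums, the last at 0.477, 6.18 and 61.0 FPKM in HDCKO muscles and 92.2, 94.1 and 123.6 FPKM in WT muscles. Other lists differed: the neutrophil sum was nearest WT in HDCKO replicate 2, at 69.4 FPKM. The regeneration sum was farthest from WT in HDCKO replicate 3, at 134.6 FPKM. The part of these marker sums in the members' values was not tested.

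**Figure D5:**
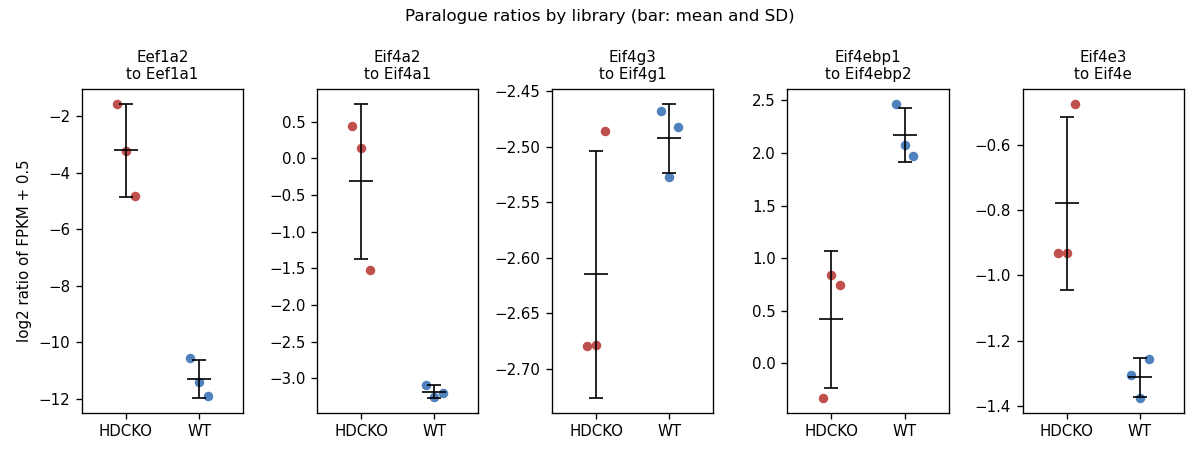
Log2 ratio of FPKM + 0.5 of 5 paralogue pairs in each library, HDCKO left and WT right in each panel, with mean and SD and a separate y axis per pair. Groups did not overlap in 4 of the pairs, and Eif4g3 to Eif4g1 overlapped. The share over other gene pairs was not counted.

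Of the 5 paralogue ratios compared, 4 did not overlap between the groups and each had an exact permutation p = 0.1, or 0.125 after Benjamini-Hochberg adjustment over the 5. Of all single genes, 21.2% did not overlap and were higher, and 51.4% did not overlap and were lower. The share over ratios of other gene pairs was not counted, so the count of 4 is not read as a result about the members. The smallest of the 4 differences was that of Eif4e3 to Eif4e, at 0.53 on the log2 scale. Its ratios were 0.506, 0.507 and 0.707 in HDCKO muscles and 0.384, 0.364 and 0.399 in WT muscles. Eif4g3 to Eif4g1 had a difference of -0.12 (exact p = 0.2, adjusted 0.2), with ratios of 0.152, 0.152 and 0.174 in HDCKO muscles and 0.177, 0.169 and 0.175 in WT muscles.

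Other parts of the translation machinery gave a setting for these values. Of 83 tested cytosolic ribosomal protein genes, 1 was higher and 56 lower (67.5%, against 42.6% of all genes), with a median log2 change of -0.82. Under median-of-ratios scaling 1 was higher and 7 lower (8.43%, against 26.3% of all genes), at -0.29. Of 35 aminoacyl-tRNA synthetases, which charge tRNA, 1 was higher and 9 lower (25.7%) with a median of -0.21. Under median-of-ratios 15 were higher (42.9%, against 26.3% of all genes) and 2 lower (5.71%), at 0.31. The median of the translation factors, -0.41 by the deposited values and 0.12 under median-of-ratios, lay between these groups in both cases. Whether the groups differ was not tested.

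The genes that work directly with the factors were read as lists by counts. Over all genes 17.8% were higher and 42.6% lower, and 26.3% in each direction under median-of-ratios. Of 9 tested genes of termination and ribosome recycling, 0 were higher and 6 lower, but 2 and 1 under median-of-ratios. They included the release factor Etf1 (-0.75, adjusted p = 0.0121), its partner GTPases Gspt1 (-0.87, 0.0149) and Gspt2 (-1.58, 0.00626), and the recycling ATPase Abce1 (-0.87, 0.00862). Gspt2 was the 1 that stayed lower under median-of-ratios. Without HDCKO replicate 2 the calls of Etf1 (0.0518) and Gspt1 (0.0603) were lost, as was that of Gspt1 without WT replicates 1 (0.0527) or 3 (0.0506). Of 14 poly(A)-binding proteins and initiation helpers, 2 were higher and 5 lower, and 6 and 1 under median-of-ratios. Pabpc1, the main cytoplasmic poly(A)-binding protein, had 45.9, 92.4 and 192 FPKM in HDCKO muscles and 345, 327 and 356 FPKM in WT muscles (-1.87, adjusted p = 0.0206). Its relative Pabpc4 had 39.3, 38.1 and 26.5 FPKM in HDCKO muscles and 16.0, 15.8 and 17.1 FPKM in WT muscles (1.05, adjusted p = 0.00651). This pair too went opposite ways, and it kept both calls under median-of-ratios, as did the poly(A)-binding protein inhibitor Paip2b (1.58, adjusted p = 0.00164). The helicase Ddx3x was lower by the deposited values (-0.67, adjusted p = 0.0156) and did not pass under median-of-ratios (-0.14, 0.47). Pabpc1 did not pass without HDCKO replicate 2 (0.0668) or WT replicates 1, 2 or 3 (0.0602, 0.0586 and 0.0642), nor Ddx3x without HDCKO replicate 2 (0.0582) or WT replicates 1 or 2 (0.0601 and 0.0554).

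Counts of the regulators of initiation can be read against the 17.8% of all genes that were higher and the 42.6% that were lower. Under median-of-ratios it was 26.3% of all genes in each direction. Of 18 genes of mTORC1 and MNK signalling, 7 were higher (38.9%) and 4 lower (22.2%), and 13 and 1 under median-of-ratios. The mTORC1 inhibitors Tsc1 (0.65, adjusted p = 0.00915) and Deptor (1.20, 0.00251) were higher, while the stress-induced inhibitor Sesn2 (-2.47, 0.00378) and the eIF4E kinase Mknk1 (-0.78, 0.0129) were lower, the last only by the deposited values and on the TPM scale among the 5 scalings. The other eIF4E kinase, Mknk2, was higher (0.80, adjusted p = 0.0133), also under median-of-ratios (1.33, 0.00289). Mknk2 averaged 71.6 FPKM in HDCKO and 40.9 FPKM in WT muscles, and Mknk1 7.27 and 12.7 FPKM. Whether the call of Mknk2 held in the refits was not checked. Among genes known to restrain mTORC1, picked out after their values were seen, Sesn2 was the only one lower. Castor1 did not pass by the deposited values (0.11, adjusted p = 0.474) but was higher under median-of-ratios (0.57, 0.0449). Tsc2 (0.61, adjusted p = 0.0143), the subunit Akt1s1 (0.71, 0.0179), Ddit4 (1.26, 0.0293) and Sesn1 (0.92, 0.031) were also higher. All 4 of these further calls were lost without HDCKO replicate 2 (adjusted p of 0.0606 for Tsc2, 0.070 for Akt1s1, 0.0968 for Ddit4 and 0.0901 for Sesn1), and without WT replicate 2 (0.0527, 0.0513, 0.0852 and 0.0836). Tsc2 (0.0617), Akt1s1 (0.0665) and Sesn1 (0.0672) were lost without WT replicate 1, and Akt1s1 (0.0556), Ddit4 (0.0879) and Sesn1 (0.0512) without WT replicate 3. Ddit4 was lost without HDCKO replicate 1 (0.0689), and Sesn1 without HDCKO replicate 3 (0.0551) and on the TPM scale (0.055). In the rest of the mTORC1 and MNK list, Rheb (-0.40, adjusted p = 0.0384) and Rps6kb1 (-0.43, 0.0352) were lower and did not pass under median-of-ratios. Mtor, Rptor, Mlst8, Rps6kb2 and Pdcd4 did not pass by the deposited values and were higher under median-of-ratios (adjusted p of 0.0224, 0.0144, 0.0255, 0.0487 and 0.0447). Larp1 passed under neither. Whether the calls of Rheb and Rps6kb1 held in the refits was not checked. Of 7 regulators of eIF2 phosphorylation, 0 were higher and 4 lower (57.1%), under the deposited values and under median-of-ratios alike. Ppp1r15a (GADD34, which directs a phosphatase to eIF2) had a mean of 9.15 ± 0.758 FPKM in HDCKO muscles and 21.7 ± 1.51 FPKM in WT muscles (SD, n = 3 each; -1.20, adjusted p = 0.00143). Its constitutive relative Ppp1r15b (-1.51, adjusted p = 0.014, or 0.0507 without WT replicate 2), the GCN2 inhibitor Impact (-1.01, 0.00431) and the kinase-inhibiting chaperone Dnajc3 (-1.32, 0.00456) were lower as well. Eif2s1 and Eif2ak3 themselves were lower too, while Eif2s2, Eif2ak1 and Eif2ak2 did not pass. The calls of Eif2s3x and Eif2ak4 were lost under median-of-ratios. Whether the regulators and these members moved together was not tested. Of 11 genes for the diphthamide, hypusine and selenocysteine modifications, 1 was higher and 5 lower, and 1 and 1 under median-of-ratios. Dph6, of diphthamide synthesis, stayed lower under median-of-ratios (-1.01 by the deposited values, adjusted p = 0.00919).

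Mitochondrial translation factors serve the respiratory chain and bear other symbols. Of 11 tested, 6 were higher (54.5%, against 17.8% of all genes), 0 lower and 5 did not pass, with a median log2 change of 0.54 by the deposited values. Under median-of-ratios 8 were higher (72.7%, against 26.3% of all genes) and 0 lower. Whether this list differed from the others was not tested. Gfm1, the mitochondrial elongation factor G, had 42.0, 34.2 and 30.9 FPKM in HDCKO muscles and 17.3, 16.8 and 17.3 FPKM in WT muscles (1.03, SE 0.15, adjusted p = 0.00396). Gfm2, the mitochondrial recycling factor, had 8.17, 7.81 and 5.83 FPKM in HDCKO muscles and 2.53, 2.49 and 2.54 FPKM in WT muscles (1.35, SE 0.17, adjusted p = 0.00211). Mtif3 (0.54, adjusted p = 0.0146) and Mtrf1 (0.77, 0.0188) were higher too. Without HDCKO replicate 2 or WT replicates 1 or 3 adjusted p was 0.0594, 0.0652 and 0.0591 for Mtif3 and 0.070, 0.0644 and 0.0625 for Mtrf1, and without WT replicate 2 it was 0.0584 for Mtrf1. Tsfm, the exchange factor of the mitochondrial EF-Tu, was at 9.63, 11.2 and 11.96 FPKM in HDCKO muscles and 13.9, 13.4 and 16.5 FPKM in WT muscles; it did not overlap but did not pass (-0.40, adjusted p = 0.0601), and its log2 change was 0.11 under median-of-ratios. Within HDCKO muscles Gfm1 and Gfm2 were lowest in the library with the lowest fibre marker sum, and Mtif3 was not. The part of fibre RNA in these values was not tested.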

How the data were processed

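Total RNA of hind limb skeletal muscle from 3 HDCKO and 3 WT mice was sequenced, and groups were taken from the labels. The authors deposited 1 table of FPKM values with a column per mouse, converted from counts per the submitters' processing notes, which name FastQC 0.11.9, HISAT2 2.1.0, HTSeq 0.11.2, STAR 2.7.11b, DESeq2 1.22.2 and GRCm39. Which aligner gave the values, and how reads shared between genes or strands were treated, no source used here says. Library sums were 405521 to 454887 FPKM, 19169 to 21565 genes were above 0, and the step of low values gave estimated depths of 29200000 to 37600000 fragments, which entered no test.

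Because FPKM values are not counts, limma with an intensity trend (version 3.58.1 in R 4.3.3, with statmod 1.5.0) was run on log2(FPKM + 0.5) over all 13288 genes averaging 0.5 FPKM or more, HDCKO over WT with no covariate, with Benjamini-Hochberg adjustment and a threshold of 0.05. Values in parentheses after a gene are log2 changes with adjusted p from this fit, on the log2(FPKM + 0.5) scale, which understates changes of low genes. The pipeline was tested on simulated data. Ratios were tested by exact permutation over the 6 libraries (scipy 1.17.1). Alternatives were other pseudocounts, filters and scalings, array weights, a replicate block and leaving out each library. Whether tissue pieces or cages were shared is not stated, so p-values measure the spread between these mice. Replicate numbers were not taken to pair mice.

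Members, lists, markers and alternatives were chosen with earlier results of these data known. Every member is accounted for. Values per library are given for the genes of the 5 ratios and, in each role group, for the member with the largest change that passed and the most abundant one, and in each list the 4 genes of lowest p, at most, are named. Eif2ak2, Eef1b2, Eef1akmt2, Eif5a2, Eif2b3, Eif3j1, Pabpc1, Pabpc4, Gfm1, Gfm2 and Tsfm were given values per library or group ranges after they were seen, and Tsc2, Akt1s1, Ddit4, Sesn1, Castor1, Mknk2 and Tsfm were named then. The remaining mTORC1 and MNK genes (Rheb, Rps6kb1, Mtor, Rptor, Mlst8, Rps6kb2, Pdcd4 and Larp1) and the markers Myh2, Myh8, Ly6g and Ngp were named then too. Of the listed genes, Znf598 was not matched by symbol.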

Additional observations from a re-analysis of the deposited data

How the results depend on the processing

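The alternatives kept the direction of 4 of the 5 paralogue ratios, while Eif4g3 to Eif4g1 was 0.064 under quantile normalization (the cause was not tested). Median-of-ratios scaling gave 19 members higher and 15 lower with a median of 0.12, quantile normalization 14 and 19 (-0.040), and the sum without fibre and respiratory genes 26 and 8 (0.21). Array weights gave 12 and 46. Leaving out 1 library gave 3 to 7 members higher and 9 to 37 lower. For array weights, the refits and the replicate block the share of all genes called was not counted. The member counts under these settings are therefore not read as a result about the members. On the log2 scale, median-of-ratios scaling turned the sign of Eef1d (0.12), Eef2 (0.51), Eif1ad (0.041), Eif1b (0.23), Eif2a (0.37), Eif2ak1 (0.32), Eif2b2 (0.48), Eif2s2 (0.36), Eif2s3x (0.048), Eif3c (0.074), Eif3e (0.42), Eif3f (0.47), Eif3g (0.12), Eif3h (0.26), Eif3i (0.19), Eif3k (0.016), Eif3m (0.44), Eif4b (0.33), Eif4e (0.29), Eif4g1 (0.50), Eif4g2 (0.28), Eif4g3 (0.37), Eif5 (0.13) and Eif5b (0.44). Quantile normalization turned that of Eef2 (0.32), Eif1b (0.077), Eif2a (0.30), Eif2ak1 (0.26), Eif2b2 (0.36), Eif2s2 (0.21), Eif3e (0.17), Eif3f (0.20), Eif3m (0.29), Eif4b (0.093), Eif4e (0.22), Eif4g1 (0.23), Eif4g3 (0.29) and Eif5b (0.39). The sum without fibre genes turned that of Eef1d (0.21), Eef1g (0.045), Eef2 (0.60), Eif1ad (0.13), Eif1b (0.32), Eif2a (0.45), Eif2ak1 (0.41), Eif2b2 (0.57), Eif2b3 (0.053), Eif2s2 (0.45), Eif2s3x (0.14), Eif3c (0.16), Eif3e (0.51), Eif3f (0.56), Eif3g (0.21), Eif3h (0.35), Eif3i (0.28), Eif3k (0.11), Eif3m (0.53), Eif4b (0.42), Eif4e (0.38), Eif4e2 (0.074), Eif4g1 (0.59), Eif4g2 (0.37), Eif4g3 (0.45), Eif5 (0.22) and Eif5b (0.53). TPM turned that of Eif2b5 (-0.045), and array weights that of Eef2 (0.025). Leaving out 1 library turned the sign, over these ranges, of Eef2 (-0.16 to 0.15), Eif3e (-0.24 to 0.073), Eif3f (-0.18 to 0.10), Eif3m (-0.17 to 0.0074), Eif5b (-0.18 to 0.0073), Eif2b2 (-0.12 to 0.030) and Eif4g1 (-0.071 to 0.0045). Tsfm, no member, was 0.11, 0.046 and 0.20 under median-of-ratios, quantile and the sum without fibre genes. Of the 35 calls by the deposited values, each that changed sign lost its call. A replicate block gave 5 higher and 21 lower; deviations of same-numbered mice correlated at 0.122, 0.067 and 0.138, and HDCKO replicate 2 correlated best with WT replicate 1, so the numbers were not read as pairs. Values under 0.5 FPKM rest on few fragments.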
